A study of Mus musculus with 16 samples.

Results

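The angiotensin and endothelin systems were followed through 9 genes of the mouse heart, chosen by name from the 55573 genes of the count table: the angiotensin precursor Agt, the converting enzyme Ace, the angiotensin receptors Agtr1a and Agtr2, the endothelin genes Edn1 and Edn3, the endothelin-converting enzyme Ece1, and the endothelin receptors Ednra and Ednrb. RNA came from the apex of the heart of 16 male wild-type mice, with 4 mice in each of 4 groups. All of them had been injected under the skin on postnatal day 1 with AAV9, an adeno-associated virus that reaches the heart, and in each case the cTNT promoter restricted expression of the cargo to cardiomyocytes. The cargo was GFP in AAV9-cTNT-GFP mice (AAV9-GFP) and the long noncoding RNA Cardinal in AAV9-cTNT-CARDINAL mice (AAV9-Cardinal), so control mice carried a virus too. Each vector was studied after a sham operation and after transverse aortic constriction (TAC), which narrows the aorta and loads the left ventricle with pressure, and hearts were taken 4 weeks after surgery. Age at surgery and strain are not given in the sources used here. The comparisons ask how pressure overload moves these genes with each vector, and whether Cardinal changes their level or their response.

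In the angiotensin system, the secreted precursor angiotensinogen is cut by renin and then by angiotensin-converting enzyme to angiotensin II, a peptide that constricts vessels and promotes growth of cardiomyocytes and deposition of matrix through its type 1 receptor. In the endothelin system, a larger precursor is cut by endothelin-converting enzyme to a short peptide that acts on the type A and type B endothelin receptors, of which the first constricts smooth muscle and the second, on endothelium, favours relaxation and clears the peptide. Both systems have long been studied in hypertrophy and heart failure, where drugs against the converting enzyme and the type 1 angiotensin receptor are in use.

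On the GRCm38 build, Agt lies on chromosome 8 (124556534 to 124569706, minus strand), Ace on chromosome 11 (105967945 to 105989964, plus strand), Agtr1a on chromosome 13 (30336441 to 30382867, plus strand) and Agtr2 on chromosome X (21484544 to 21489164, plus strand). Edn1 lies on chromosome 13 (42301476 to 42307990, plus strand), Edn3 on chromosome 2 (174760619 to 174784042, plus strand), Ece1 on chromosome 4 (137862237 to 137965229, plus strand), Ednra on chromosome 8 (77663031 to 77724464, minus strand) and Ednrb on chromosome 14 (103814625 to 103844402, minus strand). Each is annotated as protein coding, and values refer to the deposited count of the whole gene. The antisense gene Gm11651 overlaps 5.58% of the exon bases of Ace, 4933431K23Rik 1.66% of Ednra and Gm47118 1.64% of Edn1. Whether the counting used strand is not given in the sources used here, so reads over those stretches cannot be assigned. Of the 50-base stretches of Agtr1a, 1.27% also occur in other genes, its paralog Agtr1b among them, whereas Edn3, Agt and Agtr2 share none.

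The endothelin transcripts are paralogs, and the stretches that code for their mature peptides show how far apart they are. Both stretches lie in exon 2, on the plus strand, at chr13:42303649-42303711 for Edn1 and chr2:174761749-174761811 for Edn3. They were read from the GENCODE M21 transcripts of GRCm38, and capitals mark the bases at which they differ.
Edn1: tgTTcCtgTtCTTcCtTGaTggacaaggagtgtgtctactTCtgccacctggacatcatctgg
Edn3: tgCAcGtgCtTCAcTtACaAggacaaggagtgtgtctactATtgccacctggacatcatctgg
The stretches hold 63 bases, or 21 codons, and differ at 13 bases and 6 residues, all but 2 of those bases within the first part of the peptide. No 50-base stretch of Edn3 or Edn1 occurs exactly in another annotated gene.

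Counts on genes totalled 16441997 to 21904589 per mouse, and the lowest total, that of AAV9-Cardinal sham mouse 4, stood apart from the others (21525012 and above). Mitochondrially encoded genes took 30.3% to 31.9% of the counts after TAC and 32.2% to 34% after sham surgery, and without them 3 and 2 members were again called after TAC with AAV9-GFP and AAV9-Cardinal. Cardinal itself (Gm12295) measured 3.42 to 7.24 CPM in the AAV9-GFP mice, 26.2 to 40.0 CPM in AAV9-Cardinal sham mice, 93.9 CPM in AAV9-Cardinal TAC mouse 1 and 18.3 to 20.6 CPM in the other three mice of that group. Values are given as CPM, counts scaled to a common library size after edgeR's TMM scaling. The tissue held the cardiomyocyte markers throughout, while 4 atrial markers summed to between 0 and 2.53 CPM. A summed score of 5 genes of pressure overload (Nppa, Nppb, Acta1, Myh7 and Ankrd1) was 3913 to 4686 CPM in the sham groups, 7678 to 11421 CPM in AAV9-GFP TAC and 5624 to 7941 CPM in AAV9-Cardinal TAC hearts. Within the last group, too, mouse 1 had the highest sum, and its 5 markers of activated fibroblasts reached 149 CPM against 48.0 to 62.3 CPM in the other three (169 to 297 CPM in AAV9-GFP TAC and 23.7 to 31.4 CPM in the sham groups). Results on this mouse, on AAV9-GFP TAC mouse 1 and on AAV9-GFP sham mouse 4 are therefore also given without it where it matters. Labelled numbers are mouse numbers within a group, and p-values measure the spread between these mice. RNA from a whole piece of tissue cannot separate fewer cells of a type from less RNA per cell.

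Per kilobase of exon, the enzymes and the receptors other than Agtr2, which had no counts, were the abundant members and the ligands were scarcer. In AAV9-GFP sham hearts Ece1 stood at 11.2 ± 0.144 CPM per kilobase, Agtr1a at 10.8 ± 1.46, Ace at 10.5 ± 0.929 and Ednra at 8.53 ± 2.08 (SD, n = 4), and the mice of these 4 genes overlapped. Ednrb followed at 3.83 ± 0.364, below all of them in every mouse. Edn1 (1.64 ± 0.475), Agt (1.20 ± 0.222) and Edn3 (0.931 ± 0.610) came last and overlapped each other. After TAC the order changed with AAV9-GFP: Ace led at 16.3 CPM per kilobase (13.2 to 19.6), above Ece1 at 11 (10.3 to 11.6), and Edn3 at 3.31 (2.53 to 4.02) lay above Edn1 at 1.23 (0.761 to 1.93) with no overlap. The AAV9-Cardinal TAC hearts gave 12.9 (11.6 to 15.3) for Ace, 10.4 (9.88 to 10.9) for Ece1, 3.00 (2.57 to 3.35) for Edn3 and 1.44 (1.20 to 1.74) for Edn1.

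After TAC, Edn3 rose and Agtr1a fell with both vectors and Ace rose with AAV9-GFP. Edn1, Agt, Ece1 and the endothelin receptors did not pass the threshold with either vector. The calls of Agtr1a, and that of Edn3 with AAV9-Cardinal, were lost with the mouse number as a block. Over all genes, that block took the calls from 2934 to 2091 with AAV9-GFP and from 1092 to 31 with AAV9-Cardinal. Whether the numbers pair mice of different groups could not be decided. The numbers 5, 6 and 7 each label a single mouse, which such a block fits exactly. With the block the AAV9-Cardinal TAC group thus rested on mice 1 and 4, and the AAV9-GFP TAC group on mice 1, 3 and 4. With AAV9-GFP, 3 of the 8 members tested passed an edgeR adjusted p under 0.05 (2 higher, 1 lower), where 17.4% of all 16857 genes tested did (8.49% higher and 8.92% lower). With AAV9-Cardinal, 2 of 8 passed (1 higher, 1 lower), where 6.48% of all genes did (3.10% higher and 3.38% lower). The median log2 fold change of the 8 members was 0.23 with AAV9-GFP and 0.41 with AAV9-Cardinal, against 0.005 and -0.00047 over all genes tested. At an unadjusted p under 0.05, the count was 4 of 8 and 7 of 8, beside 5041 and 3682 of all 16857 genes tested. The members were chosen with earlier results of these data known, so these counts and medians describe the list and do not test it. All 8 detected members were kept by edgeR's filter on low counts, and Agtr2 was not tested.

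**Figure D1:**
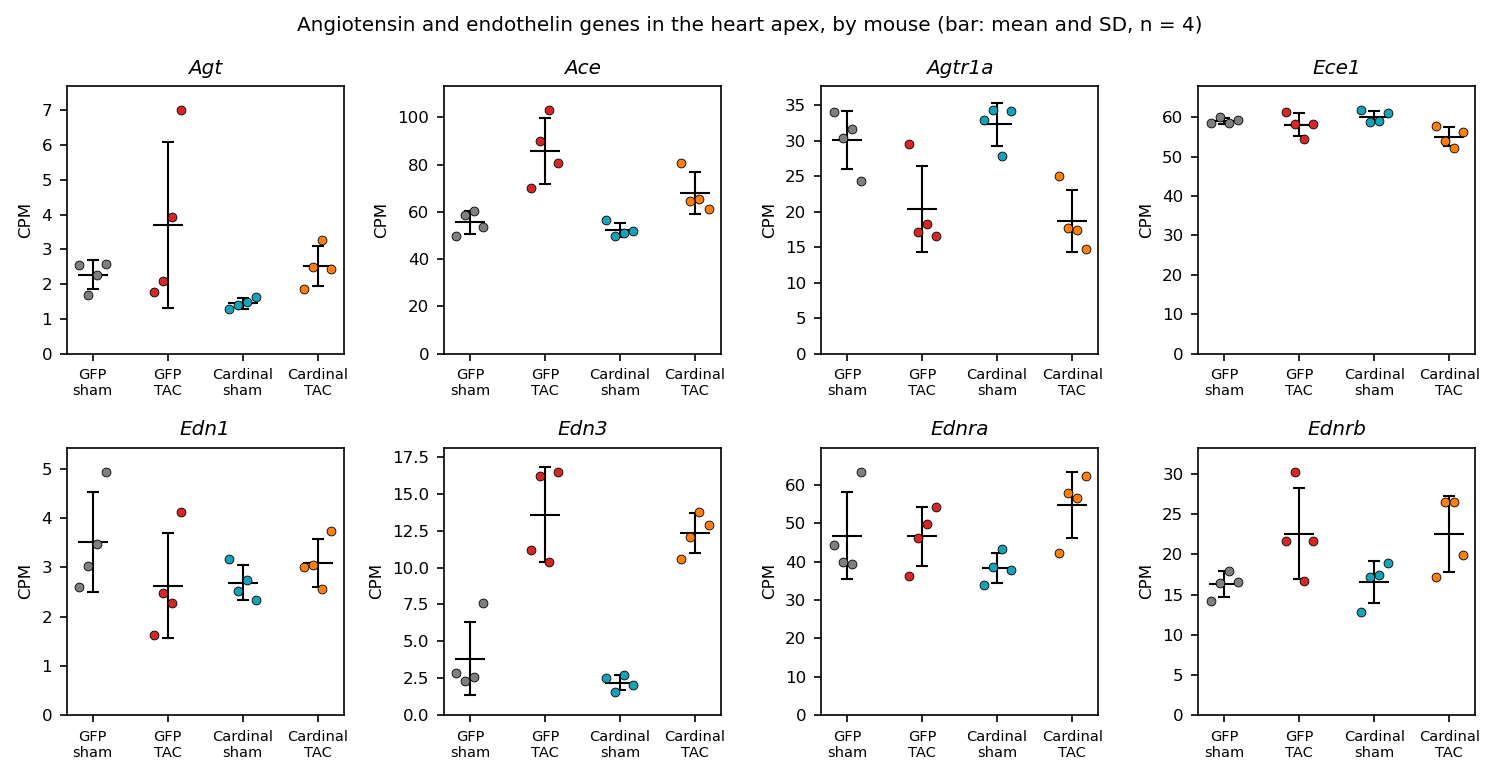
Levels of the 8 detected members in CPM (vertical axes from 0) in the 4 groups. Each point is a mouse and the bar gives the mean and SD. Edn3 lies between 1.58 and 7.58 CPM in the sham groups and between 10.4 and 16.5 CPM in the TAC groups, and Ece1 stays between 52.3 and 61.8 CPM throughout.

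**Figure D2:**
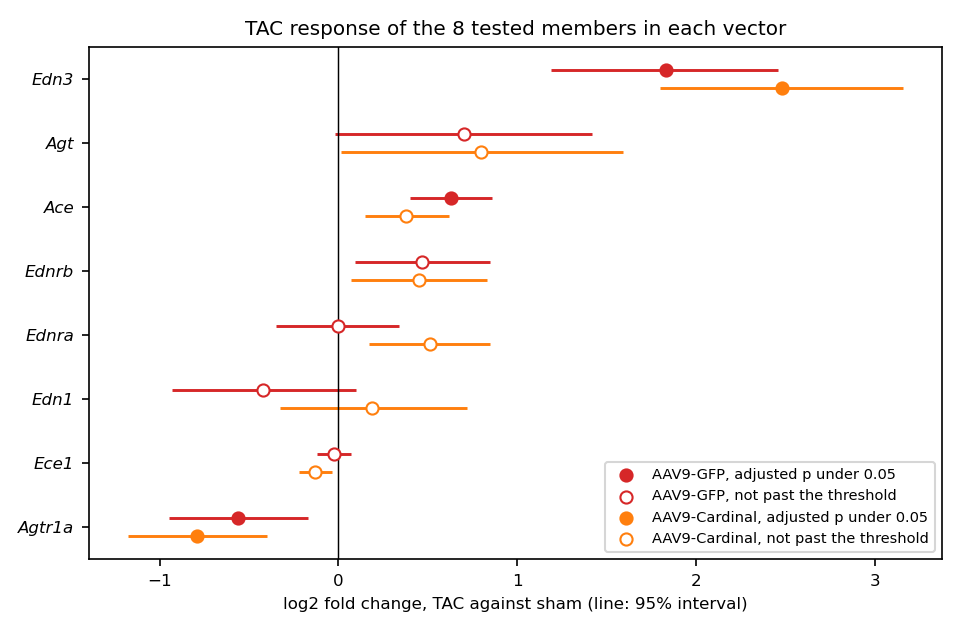
Log2 fold change of TAC against sham (horizontal axis) for the 8 tested members with AAV9-GFP (red) and AAV9-Cardinal (orange), where points are edgeR estimates, lines their 95% intervals and filled points an adjusted p under 0.05. Edn3 stands far right with 1.83 and 2.48, and Agtr1a lies left of 0 with -0.56 and -0.79. The intervals of the vectors overlap for every member, which is not a test of the difference between vectors.

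Edn3 gave the largest difference of the members. It codes for endothelin-3, a ligand that binds the type B receptor as well as endothelin-1 does and the type A receptor more weakly. In AAV9-GFP sham hearts its level was 2.84, 2.31, 2.60 and 7.58 CPM in mice 1, 2, 3 and 4, and in AAV9-GFP TAC hearts it was 11.2, 16.2, 10.4 and 16.5 CPM in mice 1, 3, 4 and 7. In AAV9-Cardinal sham hearts it was 2.53, 1.58, 2.69 and 2.01 CPM in mice 1 to 4, and in AAV9-Cardinal TAC hearts 10.6, 12.1, 13.8 and 12.9 CPM in mice 1, 4, 5 and 6. With each vector every TAC mouse lay above every sham mouse, and the highest sham value was that of AAV9-GFP sham mouse 4. The mean rose from 3.83 ± 2.51 to 13.6 ± 3.23 CPM (SD, n = 4) in AAV9-GFP hearts, or 1.83 in log2 (SE 0.30, adjusted p = 0.00075 by edgeR). It rose from 2.20 ± 0.507 to 12.4 ± 1.37 CPM (SD, n = 4) in AAV9-Cardinal hearts, or 2.48 in log2 (SE 0.32, adjusted p = 0.0010 by edgeR). Exact two-sided permutation of the 4 and 4 mice gave p = 0.029 with each vector, the smallest that 70 labelings allow. Without AAV9-GFP sham mouse 4 the log2 fold change with AAV9-GFP was 2.40 (edgeR adjusted p = 1.6e-05). The call held in each of 16 fits that left out a mouse, with each vector, while the mouse number as a block gave 2.19 with AAV9-Cardinal (edgeR adjusted p = 0.075).

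Edn1, which codes for endothelin-1, the strongest vasoconstrictor of the family and a product mainly of endothelium, stayed low. Its level was 2.60, 3.03, 3.48 and 4.94 CPM in AAV9-GFP sham hearts and 1.63, 2.48, 2.27 and 4.13 CPM in AAV9-GFP TAC hearts, in the same order of mice. With AAV9-Cardinal it was 3.16, 2.51, 2.74 and 2.34 CPM after sham surgery and 3.01, 3.05, 2.56 and 3.73 CPM after TAC. The groups overlapped with each vector. The log2 fold change was -0.42 (95% interval -0.93 to 0.10, edgeR adjusted p = 0.28) with AAV9-GFP and 0.19 (95% interval -0.33 to 0.72, edgeR adjusted p = 0.72) with AAV9-Cardinal. Without AAV9-GFP TAC mouse 7, the highest of its group, the former became -0.72 (edgeR adjusted p = 0.039). These values rest on 36 to 101 counts per mouse.

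Agt, the only source of angiotensin peptides and in the body chiefly a product of the liver, was detected at 25 to 161 counts per mouse. Its level was 2.55, 1.68, 2.25 and 2.59 CPM in AAV9-GFP sham hearts and 1.76, 2.1, 3.94 and 7.00 CPM in AAV9-GFP TAC hearts. With AAV9-Cardinal it was 1.27, 1.39, 1.49 and 1.62 CPM after sham surgery and 1.86, 2.49, 3.26 and 2.44 CPM after TAC. The AAV9-GFP groups overlapped, with 2 TAC mice inside the sham range and mouse 7 far above it, whereas every AAV9-Cardinal TAC mouse lay above every AAV9-Cardinal sham mouse. The log2 fold change was 0.70 (95% interval -0.019 to 1.42, edgeR adjusted p = 0.18) with AAV9-GFP and 0.80 (95% interval 0.015 to 1.59, edgeR adjusted p = 0.22) with AAV9-Cardinal. Exact permutation gave p = 0.40 and p = 0.029, respectively, and in an edgeR fit of only the 8 mice compared the value with AAV9-Cardinal passed (0.81, adjusted p = 0.038). With the mouse number as a block the values were 0.075 and 0.43. Without AAV9-GFP TAC mouse 7 the value with AAV9-GFP was 0.20 (edgeR adjusted p = 0.69), and without AAV9-GFP TAC mouse 1 the value with AAV9-GFP became 0.94 (edgeR adjusted p = 0.046).

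Ace codes for the membrane enzyme that forms angiotensin II and breaks down bradykinin. In AAV9-GFP hearts it measured 49.6, 58.8, 60.2 and 53.5 CPM after sham surgery and 69.9, 90, 103 and 80.5 CPM after TAC. In AAV9-Cardinal hearts it measured 56.4, 49.7, 51.1 and 52.0 CPM after sham surgery and 80.9, 64.7, 65.4 and 61.2 CPM after TAC. TAC and sham mice did not overlap with either vector, and AAV9-Cardinal TAC mouse 1 lay within the range of the AAV9-GFP TAC mice. Ace rose by 54.9% with AAV9-GFP, from 55.5 ± 4.91 to 86.0 ± 14.2 CPM (SD, n = 4), a rise of 0.63 in log2 (SE 0.11, adjusted p = 0.0012 by edgeR) that was past the threshold in each alternative and without any mouse. With AAV9-Cardinal the means were 52.3 ± 2.90 and 68.1 ± 8.75 CPM (SD, n = 4), and the difference of 0.38 in log2 (SE 0.11, adjusted p = 0.052 by edgeR) did not pass. It passed with DESeq2 (adjusted p = 0.016), with only the 8 mice compared (edgeR adjusted p = 0.038) and among genes with at least 1 CPM in 4 mice (edgeR adjusted p = 0.047), and without mouse 1 it was 0.29 (edgeR adjusted p = 0.11). It also passed without AAV9-GFP TAC mouse 1 or 4 (edgeR adjusted p = 0.028 and 0.035), which enter only through the shared spread. Exact permutation of the mice gave p = 0.029 with each vector.

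The sum of 7 fibroblast markers was higher in the AAV9-GFP TAC mice, as Ace was, but not in all AAV9-Cardinal TAC mice (endothelium and fibroblasts can express Ace). The summed level of 7 fibroblast markers was 497 to 565 CPM in AAV9-GFP sham, 750.3 to 947 CPM in AAV9-GFP TAC, 483 to 538 CPM in AAV9-Cardinal sham and 491 to 876 CPM in AAV9-Cardinal TAC hearts, where mouse 1 held the 876. The other three mice of that group had fibroblast sums of 491 to 531 CPM, inside the range of their sham group, and Ace above every sham mouse of it. Of these markers 4 of 7 rose with AAV9-GFP and 0 of 7 with AAV9-Cardinal by edgeR, beside 8.49% and 3.10% of all genes. With AAV9-Cardinal DESeq2 called 2 of 7, and 3 of 7 had an unadjusted p under 0.05 (1369 and 3682 of all 16857 genes). The 5 markers of activated fibroblasts summed to 48 to 62.3 CPM in those other three mice, against 23.7 to 31.4 CPM in their sham group. By edgeR 3 of the 4 tested of these 5 markers rose with each vector. The 7 endothelial markers summed to 479 to 586 CPM in AAV9-GFP sham, 556 to 676 CPM in AAV9-GFP TAC, 507 to 533 CPM in AAV9-Cardinal sham and 533 to 649.6 CPM in AAV9-Cardinal TAC hearts. By edgeR 2 of these 7 rose with AAV9-GFP and 0 with AAV9-Cardinal, beside 8.49% and 3.10% of all genes. At an unadjusted p under 0.05 the count was 4 and 3 of 7, beside 5041 and 3682 of all 16857 genes. No gene of these lists was at 0 in all mice, and the part of these cells in the Ace result was not tested.

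Edn3 and Ace, the members that rose, are shown with the 250 bases before the RefSeq transcript start on the plus strand of GRCm38.p6, at chr2:174760369-174760618 and chr11:105967698-105967947. Capitals mark matches of 5 motifs, each searched on both strands. The TATA box was searched as TATAAA and the site of GATA factors as AGATAA. The site of the AP-1 factors was searched as TGACTCA, the GC box as GGGCGG and the core of the NFAT site as GGAAAA.
Edn3: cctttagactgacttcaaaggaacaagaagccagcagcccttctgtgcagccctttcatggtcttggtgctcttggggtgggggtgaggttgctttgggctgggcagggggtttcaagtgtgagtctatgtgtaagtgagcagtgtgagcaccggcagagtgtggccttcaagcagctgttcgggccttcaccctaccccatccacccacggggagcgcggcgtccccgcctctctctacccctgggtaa
Ace: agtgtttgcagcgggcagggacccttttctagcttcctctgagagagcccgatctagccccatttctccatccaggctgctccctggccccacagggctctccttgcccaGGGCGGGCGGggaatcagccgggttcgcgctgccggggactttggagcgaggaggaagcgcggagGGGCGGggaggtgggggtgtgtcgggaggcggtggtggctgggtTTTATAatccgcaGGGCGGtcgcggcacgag
The Edn3 window held 0 matches and 59.2% G and C. The Ace window held 67.2% G and C, 4 matches of the GC box on the plus strand, which begin 140, 136, 75 and 18 bases before the start (the first 2 overlap), and 1 match of the TATA box on the minus strand 31 bases before the start. Over 32851 promoter windows of the same length, 12.4% held the TATA box, 9.99% the GATA site, 4.46% the AP-1 site, 32.7% the GC box and 20.4% the NFAT core, with a median of 52.4% G and C. A match is a run of letters and was not tested for function. Of the 9 members 8 had an entry among these promoters.

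Ece1, the membrane protease that releases the active endothelins, was the steadiest member. It measured 58.5, 60.1, 58.6 and 59.4 CPM in AAV9-GFP sham and 61.5, 58.2, 54.5 and 58.4 CPM in AAV9-GFP TAC hearts. It measured 61.8, 58.9, 59.1 and 61.0 CPM in AAV9-Cardinal sham and 57.7, 54.1, 52.3 and 56.3 CPM in AAV9-Cardinal TAC hearts. The AAV9-GFP groups overlapped, and every AAV9-Cardinal TAC mouse lay below every AAV9-Cardinal sham mouse by a small margin. The log2 fold change was -0.025 (95% interval -0.12 to 0.068, edgeR adjusted p = 0.77) with AAV9-GFP and -0.13 (95% interval -0.22 to -0.035, edgeR adjusted p = 0.098) with AAV9-Cardinal.

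Agtr1a, the type 1 receptor through which angiotensin II exerts most of its effects on vessels and heart, was lower after TAC. In AAV9-GFP sham hearts it measured 34, 30.4, 31.7 and 24.4 CPM in mice 1, 2, 3 and 4, and in AAV9-GFP TAC hearts 29.5, 17.2, 18.2 and 16.6 CPM in mice 1, 3, 4 and 7. In AAV9-Cardinal sham hearts it measured 32.9, 34.3, 27.9 and 34.2 CPM in mice 1 to 4, and in AAV9-Cardinal TAC hearts 25.0, 17.7, 17.4 and 14.8 CPM in mice 1, 4, 5 and 6. AAV9-GFP TAC mouse 1 kept a level inside the sham range while the others lay below every sham mouse, and all AAV9-Cardinal TAC mice lay below all AAV9-Cardinal sham mice. The mean went from 30.1 ± 4.06 to 20.4 ± 6.13 CPM (SD, n = 4) in AAV9-GFP hearts, or -0.56 in log2 (SE 0.18, adjusted p = 0.045 by edgeR). It went from 32.3 ± 3.02 to 18.7 ± 4.39 CPM (SD, n = 4) in AAV9-Cardinal hearts, or -0.79 in log2 (SE 0.18, adjusted p = 0.022 by edgeR). Exact permutation gave p = 0.057 and p = 0.029, respectively. The call with AAV9-GFP was near the threshold: by edgeR it held in 4 of 16 fits that left out a mouse, with adjusted p between 0.0026 (without TAC mouse 1, log2 fold change -0.79) and 0.13 (without TAC mouse 3 or 7, -0.49 and -0.47). The other fits that kept it left out AAV9-GFP sham mouse 4 or AAV9-Cardinal TAC mouse 1 or 6, and it was lost without any other mouse. The call with AAV9-Cardinal held in 10 of 16, with adjusted p between 0.0048 and 0.073. It was lost without any of AAV9-Cardinal sham mice 1, 2 and 4 or TAC mice 4, 5 and 6. With the mouse number as a block neither call held (-0.49, adjusted p = 0.06, and -0.66, adjusted p = 0.14, by edgeR), and that with AAV9-GFP was also lost without a filter on low counts (edgeR adjusted p = 0.069) and with only the 8 mice compared (edgeR adjusted p = 0.079).

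Cardiomyocyte markers were lower after TAC with AAV9-GFP, as Agtr1a was, and their sums after TAC and sham surgery overlapped with AAV9-Cardinal. Their summed level over 7 genes was 43809.8 to 46517 CPM in AAV9-GFP sham, 33298 to 39949 CPM in AAV9-GFP TAC, 42069.7 to 46387 CPM in AAV9-Cardinal sham and 39915 to 44063 CPM in AAV9-Cardinal TAC hearts. By edgeR 6 of 7 fell after TAC with AAV9-GFP and 1 of 7 with AAV9-Cardinal, beside 8.92% and 3.38% of all genes, and none was at 0. With AAV9-Cardinal DESeq2 called 2 of 7, and 4 of 7 had an unadjusted p under 0.05 (1369 and 3682 of all 16857 genes). The 7 mural cell markers (pericytes and smooth muscle, which carry type 1 and type A receptors) summed to 484 to 701 CPM in AAV9-GFP sham, 396 to 449 CPM in AAV9-GFP TAC, 502 to 554 CPM in AAV9-Cardinal sham and 407 to 449.9 CPM in AAV9-Cardinal TAC hearts, and none of them was at 0 in all mice. In that list 2 genes rose and 1 fell with AAV9-GFP, and 0 rose and 1 fell with AAV9-Cardinal. Their median log2 fold change was 0.049 and 0.026, respectively, although their sums were lower after TAC. Fibroblast markers went the other way from Agtr1a with AAV9-GFP. Of these 7 markers 4 rose and 0 fell with AAV9-GFP (median log2 fold change 0.74), and 0 rose and 0 fell with AAV9-Cardinal (0.32). Of all genes 8.49% rose and 8.92% fell with AAV9-GFP, and 3.10% and 3.38% with AAV9-Cardinal. The part of any of these cell types in the Agtr1a result was not tested.

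Agtr2, the type 2 angiotensin receptor, which opposes many type 1 effects and is mostly a fetal gene, had 0 counts in all 16 mice. At these depths 3 counts, the limit that a count of 0 allows, correspond to between 0.126 and 0.195 CPM, so a level up to that was not detectable. The paralog Agtr1b had between 2 and 7 counts per mouse and was not tested.

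Ednra, the type A endothelin receptor of smooth muscle, fibroblasts and cardiomyocytes, was at 44.2, 39.9, 39.3 and 63.4 CPM in AAV9-GFP sham hearts and 36.2, 46.1, 49.7 and 54.2 CPM in AAV9-GFP TAC hearts. With AAV9-Cardinal it was at 33.8, 38.6, 43.4 and 37.9 CPM after sham surgery and 42.2, 57.8, 56.6 and 62.2 CPM after TAC. AAV9-GFP sham mouse 4 had the highest level of all mice, and AAV9-Cardinal TAC mouse 1 was the lowest of its group and the only mouse of it inside the sham range. The log2 fold change was -0.0055 (95% interval -0.35 to 0.34, edgeR adjusted p = 0.99) with AAV9-GFP and 0.51 (95% interval 0.17 to 0.85, edgeR adjusted p = 0.075) with AAV9-Cardinal. Without AAV9-GFP sham mouse 4 these were 0.18 (adjusted p = 0.46) and 0.51 (adjusted p = 0.033), and without AAV9-Cardinal TAC mouse 1 the latter was 0.62 (adjusted p = 0.029), all by edgeR. The difference of 0.51 with AAV9-Cardinal also passed with DESeq2 (adjusted p = 0.024) and in an edgeR fit of only the 8 mice compared (adjusted p = 0.042), and exact permutation gave p = 0.057.

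Ednrb, the type B endothelin receptor, found on endothelium and able to bind all endothelins alike, was at 14.2, 16.5, 18 and 16.6 CPM in AAV9-GFP sham hearts and 21.7, 30.3, 16.7 and 21.7 CPM in AAV9-GFP TAC hearts. With AAV9-Cardinal it was at 12.8, 17.2, 17.4 and 18.9 CPM after sham surgery and 17.2, 26.5, 26.6 and 19.9 CPM after TAC. In each vector 1 TAC mouse stayed inside the sham range and the other three were above it. The log2 fold changes of 0.47 (95% interval 0.092 to 0.85) and 0.45 (95% interval 0.068 to 0.83) with AAV9-GFP and AAV9-Cardinal did not pass (adjusted p = 0.084 and 0.15 by edgeR). Without AAV9-GFP TAC mouse 4, the lowest of its group, the former was 0.59 (adjusted p = 0.03 by edgeR). The ratio of Ednra to Ednrb, which does not depend on library scaling, was 2.81 in AAV9-GFP sham, 2.08 in AAV9-GFP TAC, 2.33 in AAV9-Cardinal sham and 2.44 in AAV9-Cardinal TAC hearts as geometric means over 4 mice. The TAC groups differed from their sham groups by -0.43 and 0.066 in log2 (exact permutation p = 0.20 and p = 0.71), which is within the spread between mice.

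No member passed the threshold between vectors. In TAC hearts edgeR called 0 of 8 (0.101% of all genes tested, 1 of 8 at an unadjusted p under 0.05), in sham hearts 0 of 8 (0.0119% of all genes, 1 of 8 unadjusted), and for the difference between vectors in the TAC response 0 of 8 (0.0119% of all genes, 1 of 8 unadjusted). Over all 16857 genes, 2528, 437 and 1722 had an unadjusted p under 0.05 in these comparisons, in the same order. DESeq2 called 0 members in each, and gave an adjusted p for 6 of 8, 8 of 8 and 3 of 8 members. Over all genes DESeq2 called 428 in TAC hearts and 137 for the difference in response, where edgeR called 17 and 2, and edgeR called 535 in TAC hearts without AAV9-Cardinal TAC mouse 1. The intervals of the members' differences are therefore given too.

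Ace came nearest in TAC hearts. Its level was 20.8% lower with AAV9-Cardinal than with AAV9-GFP, a log2 difference of -0.34 (95% interval -0.57 to -0.10, edgeR adjusted p = 0.17), and the groups overlapped through AAV9-Cardinal TAC mouse 1. Without that mouse the difference was -0.43 (edgeR adjusted p = 0.045), so the call turns on 1 library. The other members differed in TAC hearts by -0.56 for Agt (95% interval -1.27 to 0.15), -0.14 for Edn3 (-0.72 to 0.44), -0.12 for Agtr1a (-0.52 to 0.27), -0.077 for Ece1 (-0.17 to 0.016), -0.005 for Ednrb (-0.38 to 0.37), 0.23 for Edn1 (-0.29 to 0.75) and 0.23 for Ednra (-0.11 to 0.57). Every one of these intervals includes 0. The value of Agt was -0.046 without AAV9-GFP TAC mouse 7 and -0.79 without AAV9-GFP TAC mouse 1, and that of Edn1 was 0.063 to 0.54 when a mouse was left out.

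In sham hearts Edn3 was lower with AAV9-Cardinal by a log2 difference of -0.79 (95% interval -1.52 to -0.055, unadjusted p = 0.037, edgeR adjusted p = 1), and the groups overlapped. The difference became -0.22 without AAV9-GFP sham mouse 4. Agt was lower in every AAV9-Cardinal sham mouse (1.27 to 1.62 CPM) than in every AAV9-GFP sham mouse (1.68 to 2.59 CPM), by -0.66 (95% interval -1.46 to 0.14, edgeR adjusted p = 1), and exact permutation of the mice gave p = 0.029. The others differed by -0.38 for Edn1 (95% interval -0.90 to 0.15), -0.28 for Ednra (-0.63 to 0.062), -0.086 for Ace (-0.32 to 0.15), 0.018 for Ednrb (-0.37 to 0.40), 0.026 for Ece1 (-0.067 to 0.12) and 0.10 for Agtr1a (-0.28 to 0.49).

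The difference between vectors in the TAC response had its smallest p for Ednra, at 0.51 in log2 (95% interval 0.031 to 1.00, edgeR adjusted p = 0.46), with the higher response under AAV9-Cardinal. That value was 0.33 without AAV9-GFP sham mouse 4 and 0.62 without AAV9-Cardinal TAC mouse 1. It was 0.65 for Edn3 (95% interval -0.29 to 1.58), 0.084 without AAV9-GFP sham mouse 4, and 0.61 for Edn1 (-0.13 to 1.35). It was -0.25 for Ace (-0.58 to 0.08), -0.22 for Agtr1a (-0.78 to 0.33), 0.10 for Agt (-0.96 to 1.17), -0.10 for Ece1 (-0.23 to 0.029) and -0.023 for Ednrb (-0.56 to 0.51). The passing of Ace with AAV9-GFP and not with AAV9-Cardinal is thus not a shown difference between vectors.

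Beyond the 9 members, 54 genes of the 2 systems and their signalling were followed in 5 lists, and 45 of them could be tested. With AAV9-GFP 5 rose and 5 fell after TAC (10 of 45, beside 17.4% of all genes), and with AAV9-Cardinal 3 rose and 3 fell (6 of 45, beside 6.48%). The median log2 fold change over the 45 was 0.014 with AAV9-GFP and -0.0054 with AAV9-Cardinal, near that of all genes. Between vectors edgeR called 0 of 45 in TAC hearts (11 at an unadjusted p under 0.05, 2 by DESeq2), 0 in sham hearts (1 unadjusted, 0 by DESeq2) and 0 for the difference in response (8 unadjusted, 0 by DESeq2). The unadjusted counts over all 16857 genes were 2528, 437 and 1722, and the DESeq2 counts 428, 4 and 137. These lists, too, were chosen with earlier results of these data known, so their counts are descriptions. Renin (Ren1), Ctsg, the receptor Mrgprd, Edn2 and aldosterone synthase (Cyp11b2) had 0 counts in all mice.

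Of the 5 lists, Mas1 (receptors and regulators) and Mme (enzymes and peptidases) were the genes called lower with both vectors. Mas1, a receptor whose activation opposes many effects of angiotensin II, went from 1.09, 0.768, 0.833 and 1.12 CPM in AAV9-GFP sham mice to 0.557, 0.252, 0.306 and 0.348 CPM in AAV9-GFP TAC mice. With AAV9-Cardinal it went from 1.17, 1.30, 0.961 and 0.649 CPM to 0.354, 0.517, 0.326 and 0.414 CPM. TAC and sham mice did not overlap in either vector, at 6 to 28 counts per mouse. In log2, Mas1 fell by 1.37 (SE 0.27, adjusted p = 0.0027 by edgeR) with AAV9-GFP and by 1.35 (SE 0.27, adjusted p = 0.0096 by edgeR) with AAV9-Cardinal, and both calls held in each of 16 fits without a mouse. With the mouse number as a block the value with AAV9-Cardinal was -1.31 (adjusted p = 0.19 by edgeR). Mme (neprilysin), a peptidase that breaks down angiotensins, endothelins and natriuretic peptides, fell from 9.87 ± 0.619 to 5.44 ± 0.943 CPM (SD, n = 4) with AAV9-GFP (log2 fold change -0.86, edgeR adjusted p = 0.00058) and from 10.1 ± 1.58 to 7.06 ± 1.04 CPM (SD, n = 4) with AAV9-Cardinal (log2 fold change -0.53, edgeR adjusted p = 0.032).

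**Figure D3:**
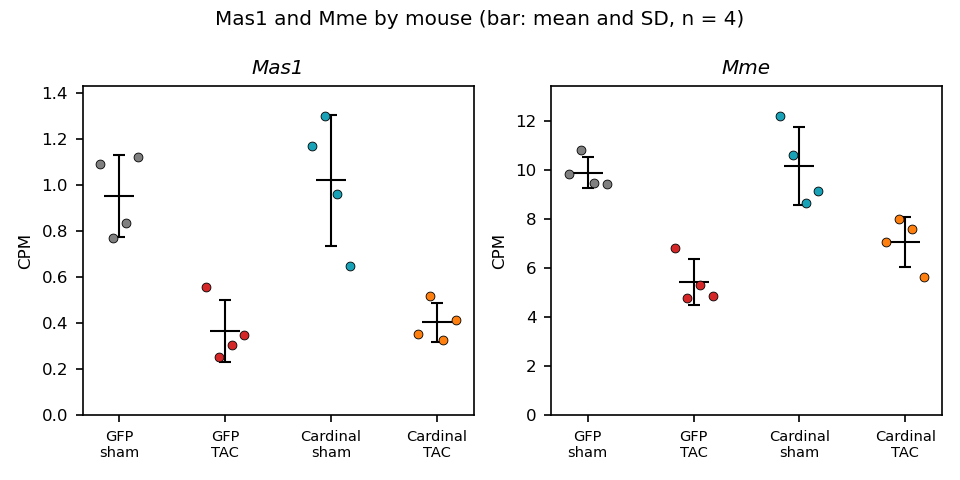
Levels of Mas1 and Mme in CPM (vertical axes from 0) in the 4 groups, with a point for each mouse and the mean and SD over 4 mice. Both lie lower after TAC with each vector with no overlap, Mas1 between 0.252 and 0.557 CPM against 0.649 to 1.30 CPM after sham surgery.

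Among the peptidases Prep (prolyl oligopeptidase) rose by 0.31 (edgeR adjusted p = 0.0024) and Nln (neurolysin) by 0.32 (edgeR adjusted p = 0.011) in log2 with AAV9-GFP, and the values with AAV9-Cardinal were 0.061 and -0.047. Rgs2, which shuts off the Gq protein that couples both the type 1 angiotensin and the endothelin receptors, fell by 1.24 (edgeR adjusted p = 0.0017) with AAV9-GFP, from 25.1 ± 2.33 to 10.6 ± 1.91 CPM (SD, n = 4). With AAV9-Cardinal it was 24 ± 8.12 CPM in sham and 18.7 ± 4.33 CPM in TAC hearts (SD, n = 4), a log2 fold change of -0.36 (edgeR adjusted p = 0.38). The TAC groups did not overlap, with 13.6 to 23.4 CPM under AAV9-Cardinal against 8.94 to 12.6 CPM under AAV9-GFP, a log2 difference of 0.82 that missed the threshold with edgeR (adjusted p = 0.12) and passed with DESeq2. Rgs4, of the same family, rose by 0.38 (edgeR adjusted p = 0.049) with AAV9-Cardinal, and its value with AAV9-GFP was 0.15. Pcsk6, a proprotein convertase, fell by 0.43 (edgeR adjusted p = 0.0026) with AAV9-GFP.

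In the signalling list, where 15 of 15 genes were tested, the protein kinases C Prkcd and Prkca rose with AAV9-GFP by 0.47 (edgeR adjusted p = 0.0096) and 0.31 (edgeR adjusted p = 0.011), and their values with AAV9-Cardinal were -0.014 and 0.021. Prkcd was also the other gene called by DESeq2 between vectors in TAC hearts, where edgeR gave -0.43 (adjusted p = 0.10) and the groups did not overlap (9.45 to 13.6 against 14.5 to 16.9 CPM). Gna13, the G protein alpha 13 subunit, rose with both vectors, by 0.24 (edgeR adjusted p = 0.034) and 0.29 (edgeR adjusted p = 0.035). With AAV9-Cardinal the phospholipase C genes Plcb4 and Plcb3 moved apart, by 0.27 (edgeR adjusted p = 0.035) and -0.19 (edgeR adjusted p = 0.047), and their values with AAV9-GFP were 0.21 (edgeR adjusted p = 0.059) and -0.021. In the mineralocorticoid list Hsd11b1, which regenerates active glucocorticoid, fell by 0.78 (edgeR adjusted p = 0.0028) with AAV9-GFP, and its value with AAV9-Cardinal was -0.42 (edgeR adjusted p = 0.11).

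**Figure D4:**
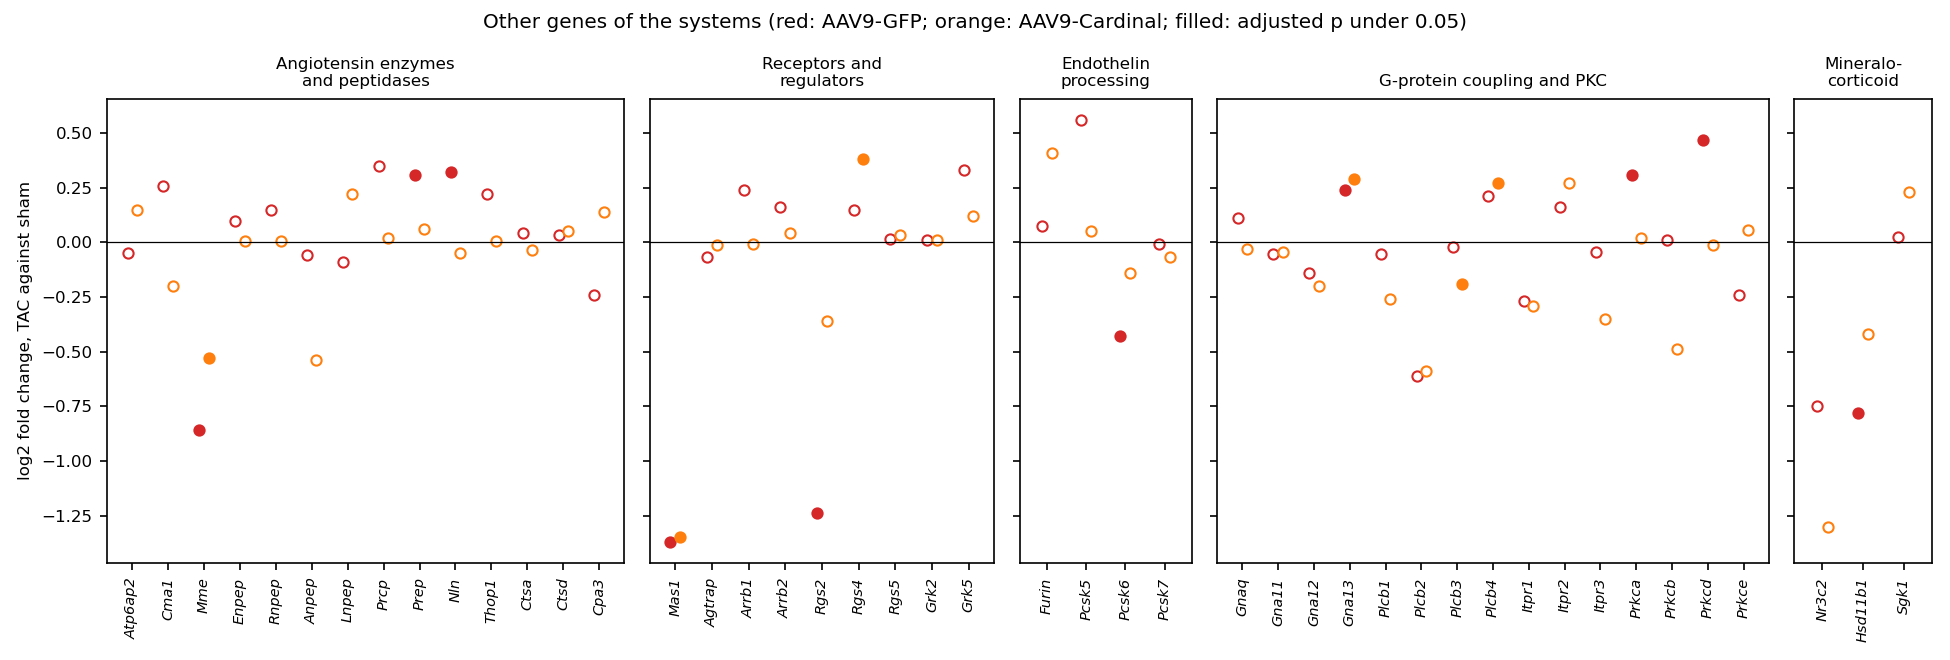
Log2 fold change of TAC against sham (vertical axis) for the 45 tested genes of the 5 lists, with red for AAV9-GFP, orange for AAV9-Cardinal and filled points for an edgeR adjusted p under 0.05. Mas1 (-1.37 and -1.35) and Mme (-0.86 and -0.53) are filled below 0 with both vectors, and Rgs2 (-1.24) with AAV9-GFP.

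Across mice, Agtr1a ran against Ednra, as it did against many other genes. In the 16 mice their log2 CPM gave a Pearson correlation of -0.80, and -0.86 after the mean of each group had been subtracted. The mice with a high Ednra for their group (AAV9-GFP sham mouse 4, AAV9-GFP TAC mouse 7, AAV9-Cardinal sham mouse 3 and AAV9-Cardinal TAC mouse 6) were those with the lowest Agtr1a of it. Agtr1a and Edn3 gave -0.87, and -0.57 after subtraction, and Edn3 and Ednra 0.65 and 0.70. These are descriptions over mice that share their group, the surgery and the scaling of the library.

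**Figure D5:**
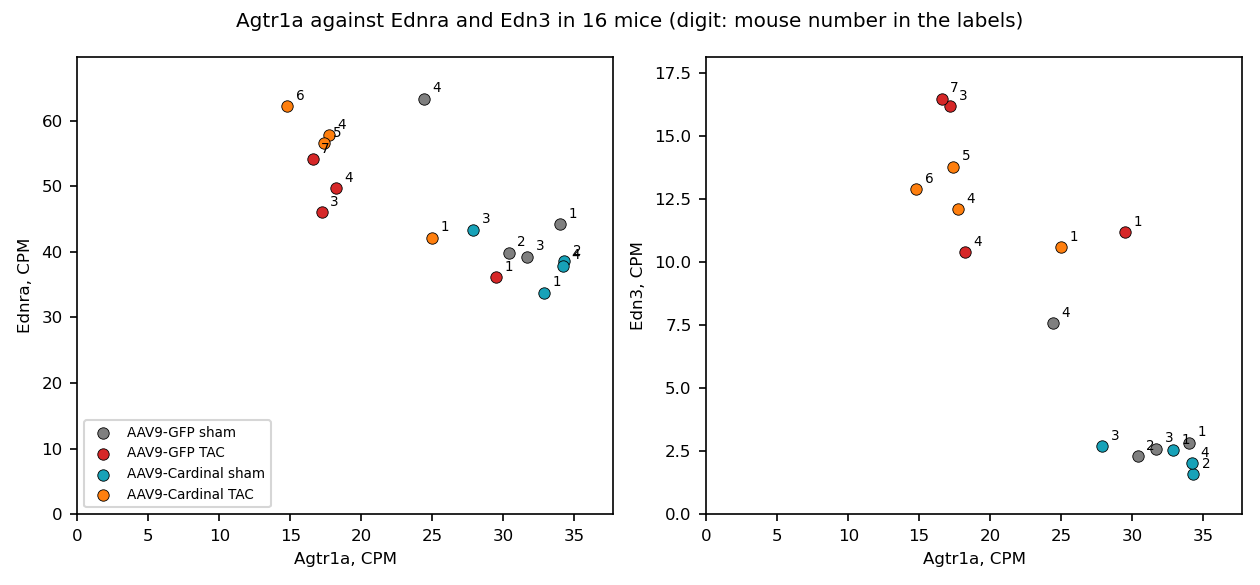
Agtr1a (horizontal axes, CPM) against Ednra and against Edn3 (vertical axes, CPM) in the 16 mice, colored by group and labelled with the mouse number. The correlation with Ednra is -0.80. AAV9-GFP TAC mouse 1 sits among the sham mice in Agtr1a (29.5 CPM) but among the TAC mice in Edn3 (11.2 CPM). Its Ednra (36.2 CPM) lies below every AAV9-GFP sham mouse (39.3 to 63.4 CPM) and inside the AAV9-Cardinal sham range (33.8 to 43.4 CPM).

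The genes most like each member over the 16 mice were named among 9938 others with a mean of at least 5 CPM. For Edn3 they were Sorbs2 (Pearson 0.96), Spsb4 (0.95) and Clic5 (0.95), for Ace Itgbl1 (0.95), Mfap4 (0.94) and Rexo2 (0.93), and for Agtr1a Rnf207, Npc1 and Prkab1 (0.96 each). For Ednra they were Erp44 (0.95), Zfp180 (0.93) and Snapc3 (0.92), for Ednrb Ptpn2 (0.89), Wsb1 (0.87) and Junb (0.87), and for Ece1 Spr (0.92), Lbh (0.90) and AI464131 (0.88). The low members gave weaker likeness, with 0.87 for Agt and Eif4ebp1 and 0.83 for Edn1 and Zfp217 among 9939 genes. After the group means had been subtracted, the closest were Efr3a (0.89) to Edn3, Itgbl1 (0.83) to Ace, Kcnj5 (0.94) to Agtr1a, Erp44 (0.95) to Ednra, Stc1 (0.85) to Ednrb, Jup (0.93) to Ece1, Med13 (0.93) to Agt and Zfp36l1 (0.88) to Edn1. Itgbl1 and Erp44 were the only genes first on both counts. The number of genes with a correlation of at least 0.8 fell from 424 to 20 for Edn3 and from 230 to 3 for Ace on subtraction, from 405 to 161 for Agtr1a, from 105 to 98 for Ednra, from 36 to 26 for Ece1 and from 16 to 2 for Ednrb. It rose from 13 to 59 for Agt and from 2 to 18 for Edn1.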

How the data were processed

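The authors deposited a raw read count for each Ensembl gene and mouse, without normalization, from single-end reads of 50 bases of poly(A)-selected RNA. The submitters' processing notes name HISAT2 2.1.0, FastQC, edgeR 3.26.1 and GRCm38. The counting program, annotation, use of strand and handling of reads with several matches are not given in the sources used here. All 16 columns were used and mapped to mice by their labels, and 55480 of 55573 genes were named with GENCODE M21. The tests across genes used edgeR 4.0.16 (R 4.3.3): TMM scaling, the filterByExpr filter on low counts (16857 genes), a quasi-likelihood fit of all 16 mice and Benjamini-Hochberg adjustment over all genes tested, with a threshold of 0.05. Log2 CPM used a prior count of 2. For single genes and the receptor ratio, an exact permutation test (two-sided, 4 against 4 mice) was run, with 70 labelings and a smallest p of 0.029. Intervals are at the 95% level. Levels per length used the exon length of GENCODE.

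The 9 members and all lists were chosen with earlier results of these data known. Named beside them were genes of the pathway lists past the threshold in any comparison, at most 5 per list by the smallest adjusted p, and the 3 genes most like each member. Gm12295 was named to check the vector, after its values were seen. A planned gene of these lists, and a ratio that used it, are not reported here. The other genes of the lists at 0 in all mice, and Agtr1b, were named for their low counts. Alternatives were DESeq2 1.42.0, RLE size factors, other filters, only the 8 mice compared, mitochondrial genes left out, the mouse number as a block, a prior count of 0.5 and each mouse left out. The fits were tested on simulated data. For TAC against sham with AAV9-GFP, edgeR recovered 44.8% of simulated 1.5-fold changes, 80.6% of 2-fold and 95.5% of 4-fold changes, with 1 false call. A member that did not pass can therefore still have changed by a small amount. Mice of a group differed by 5.32 to 16 in chi-square per degree of freedom, more than sampling noise, and were kept apart. Totals of 16441997 to 21904589 counts give a floor of 3 counts at 0.126 to 0.195 CPM, which covers counting error only. Other values were computed with numpy 2.4.6 and pandas 2.3.3 in Python 3.11.15 and plotted with matplotlib 3.10.9.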

Additional observations from a re-analysis of the deposited data

Results flagged for a closer look

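In 40 groups of 4 values, 3 held a mouse farther from its group than Dixon's critical value at the 95% level allows, where chance gives about 1 in 20, or 2. Agtr1a was 29.5 CPM in AAV9-GFP TAC mouse 1 against 16.6 to 18.2 CPM in the others of its group. Edn3 was 7.58 CPM in AAV9-GFP sham mouse 4 against 2.31 to 2.84 CPM in the others. The total of AAV9-Cardinal sham mouse 4 was 16441997 counts against 21603910 to 21786630 in the others.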

How the results depend on the processing

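Edn3 and Ace with AAV9-GFP kept their direction and stayed past the threshold in all 7 alternatives and in each of 16 fits without a mouse. The count of members called after TAC with AAV9-Cardinal, 2 as reported, was 4 with DESeq2, 5 with only the 8 mice compared and 0 with the replicate block, and 1 to 3 (3 without AAV9-Cardinal TAC mouse 1) when a mouse was left out. All genes called in that comparison numbered 615 without a filter on low counts and 31 with the block, against 1092, and 384 to 1436 when a mouse was left out. Between vectors in TAC hearts, 17 genes as reported became 428 with DESeq2, 3 without a filter and with only the 8 mice, 35 with at least 1 CPM in 4 mice, 30 without mitochondrial genes and 0 with the block, and 0 to 535 (535 without AAV9-Cardinal TAC mouse 1) when a mouse was left out, with 0 to 1 members. In sham hearts, 2 genes became 4 with DESeq2, 1 with the block and 1 to 3 without a mouse. For the difference in response, 2 became 137 with DESeq2, 1 with the block and 2 to 79 without a mouse. The cause was not tested.

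Deviations from the group mean correlated by -0.0404 to 0.211 in 16 pairs of mice with the same number and by -0.193 to 0.218 in other pairs. These ranges overlap and give only the extremes, so they cannot decide whether the numbers pair the mice. With the number as a replicate block, 2 members were called with AAV9-GFP, and 0 with AAV9-Cardinal. That block fits AAV9-Cardinal TAC mice 5 and 6 and AAV9-GFP TAC mouse 7 exactly, so its calls rest on fewer mice. The block turned the sign of Ednrb between vectors in TAC hearts (0.04, and 0.0018 without a filter) and in the difference in response (0.026). DESeq2 gave no adjusted p for Mas1 with AAV9-Cardinal, for 2 members between vectors in TAC hearts and for 5 in the difference in response. The difference in response could not be fitted with 8 mice.

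Leaving out a mouse turned the sign of some values that had not passed the threshold. No turned value passed the threshold, and without AAV9-GFP TAC mouse 1 Ece1 kept its sign and reached the smallest p of its range (exact permutation p = 0.029, log2 CPM). In the edgeR fit these were the difference in response of Agt (-0.13 to 0.61), Agtr1a (-0.40 to 0.007) and Ednrb (-0.14 to 0.15), the difference between vectors in TAC hearts of Agtr1a (-0.29 to 0.11) and Ednrb (-0.12 to 0.17) and in sham hearts of Ednrb (-0.049 to 0.13), and the TAC response with AAV9-GFP of Ednra (-0.083 to 0.18) and Ece1 (-0.048 to 0.0073). In log2 CPM they were Agt (-0.63 to 0.012), Agtr1a (-0.26 to 0.084) and Ednrb (-0.13 to 0.15) between vectors in TAC hearts, Ednrb in sham hearts (-0.058 to 0.13), and Ednra (-0.071 to 0.16) and Ece1 (-0.054 to 0.0044) after TAC with AAV9-GFP. The log2 ratio of Ednra to Ednrb after TAC with AAV9-Cardinal was -0.051 to 0.13. Among the genes described, Agt, Edn1 and Mas1 rest on 25 to 161, 36 to 101 and 6 to 28 counts per mouse.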
